A study of Mus musculus with 20 samples.

Results

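Hyperpolarization-activated, cyclic nucleotide-gated (HCN) channels were examined through the genes of 3 subunits, Hcn2, Hcn3 and Hcn4. They were chosen by name and identified by their Ensembl gene, and are 3 of the 37620 genes listed in the table of values. The libraries came from dorsal root ganglion (DRG) cells of adult mice aged 6 to 8 weeks, homozygous for Trpv1tm2Bbm, an allele that places reporter genes under control of the Trpv1 locus. Cells bright for the product of the reporter enzyme were collected by flow cytometry. There were 4 groups of 5 libraries: male lumbar (L4-5), male sacral (L6-S1), female lumbar and female sacral. Each of the 10 donors, called M1 to M5 and F1 to F5 here, gave one lumbar and one sacral library. Every group carried the reporter allele, so no group without it was compared. The study's methods count as many mice as there are donors, but the labels put a pair of animal numbers on each donor, and the sources used here do not resolve whether cells of a pair of mice were pooled.

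HCN subunits form channels that open when the membrane becomes more negative and that pass the inward current called Ih. Cyclic AMP binds to an intracellular domain of the subunits and shifts opening to less negative voltages. The shift is strong in channels of HCN2 and HCN4 and small or absent in those of HCN3. In sensory neurons Ih contributes to the resting potential and to repetitive firing, and HCN2 is known for its part in the firing of nociceptors. HCN4 is best known as the pacemaker subunit of the sinoatrial node.

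The 3 transcripts are close relatives, and the stretch that encodes the selectivity filter is shown because only uniquely mapped reads were counted. It is given 5' to 3' from the GENCODE transcripts of build NCBIM37 (mm9), with the codons for the glycine, tyrosine and glycine of the filter in capitals. In each gene it lies within exon 4 of 8, at chr10:79191674-79191742 on the plus strand for Hcn2, at chr3:88954898-88954966 on the minus strand for Hcn3 and at chr9:58703368-58703436 on the plus strand for Hcn4.
Hcn2: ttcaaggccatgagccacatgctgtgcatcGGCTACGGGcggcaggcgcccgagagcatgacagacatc
Hcn3: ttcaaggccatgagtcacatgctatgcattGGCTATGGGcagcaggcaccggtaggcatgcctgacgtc
Hcn4: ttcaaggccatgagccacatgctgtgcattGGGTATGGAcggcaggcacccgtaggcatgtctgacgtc
Over these 69 bases Hcn3 and Hcn4 differed at 7 positions, Hcn2 and Hcn4 at 11, and Hcn2 and Hcn3 at 13. Across the whole transcripts the longest run without a mismatch was 33 bases between Hcn2 and Hcn3 and 32 bases for each of the other pairs. The read length is not given in the sources used here.

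On mm9, Hcn2 (ENSMUSG00000020331) spans chr10:79179379-79198853 on the plus strand and Hcn4 (ENSMUSG00000032338) spans chr9:58671319-58708762 on the plus strand, and neither overlaps another annotated gene. Hcn3 (ENSMUSG00000028051) spans chr3:88949996-88964118 on the minus strand. Its last 711 bases overlap Pklr, a pyruvate kinase gene on the other strand, whose mean log2 RPKM was -3.52 in lumbar and -2.73 in sacral libraries, far below that of Hcn3. The sources used here do not say whether counting used the strand.

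The promoter sequences of Hcn2 and Hcn4, those that the RefSeq table used here holds, are shown as a description. Their part in the level differences was not tested. They are the 250 bases before the RefSeq start on build GRCm38.p6, at chr10:79716384-79716633 and chr9:58822699-58822948, both on the plus strand, with matches to the GC box letters GGGCGG or their reverse complement in capitals.
Hcn2: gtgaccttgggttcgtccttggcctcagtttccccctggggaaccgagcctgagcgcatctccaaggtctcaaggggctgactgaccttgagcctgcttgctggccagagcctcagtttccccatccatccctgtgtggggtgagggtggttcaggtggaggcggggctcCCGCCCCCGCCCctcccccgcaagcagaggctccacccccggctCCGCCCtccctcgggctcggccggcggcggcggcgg
Hcn4: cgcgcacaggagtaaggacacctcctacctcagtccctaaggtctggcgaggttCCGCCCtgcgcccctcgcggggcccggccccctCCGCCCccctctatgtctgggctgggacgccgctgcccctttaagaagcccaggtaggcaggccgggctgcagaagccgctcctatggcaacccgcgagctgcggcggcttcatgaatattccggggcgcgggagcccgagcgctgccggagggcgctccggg
Hcn2 held 3 matches and Hcn4 held 2, and 32.7% of the 32851 RefSeq windows of this length held at least 1. On both strands, neither window held the TATA box letters TATAAA, found in 12.4% of all windows. Neither held the box with the letters CCAAT, found in 33.8%, and neither held the half-site of the cyclic AMP response element, TGACG, found in 17.8%. Both were rich in G and C, at 70.4% and 71.2%, above 91.2% and 92.2% of windows.

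The libraries held 43906575 to 66407321 reads on genes, as worked back from the deposited log2 RPKM values, which are log2 of reads per kilobase of exon scaled to library size and step by whole reads. The 3 members had a value in all 20 libraries. The labelled cell type was checked against markers. Trpv1 had a mean log2 RPKM of 3.74 in lumbar and 4.70 in sacral libraries, a difference of -0.96 (adjusted p = 3.59e-05, limma). Beside the marker counts that follow, 30.3% of all genes tested were called higher in sacral and 15.3% higher in lumbar. Of the 7 markers of Trpv1 and peptidergic nociceptors 5 passed toward sacral, with a median of -0.72 over the 7. Calca (0.16) and Tac1 (-0.095) did not pass. Markers of other cells were also present: the summed RPKM of 10 glial markers was 2014 to 3971 in lumbar and 1241 to 2086 in sacral libraries, with every marker present in every library, and that of 6 markers of large myelinated neurons was 47.3 to 91.4 and 40.8 to 63.9. Of the 5 tested myelinated-neuron markers 2 passed toward lumbar, Pvalb (2.11) and Ntrk2 (0.77). Of the 10 glial markers 9 passed the test toward lumbar, as did 6 of 8 endothelial, mural and fibroblast markers (1 passed toward sacral) and 3 of 3 red cell markers. Of the 2 macrophage markers tested, of 6 listed, 1 passed toward lumbar. No sympathetic neuron marker had enough reads to be tested, Hand2 had no value in any library, and the summed RPKM of the 6 did not exceed 0.436. All 8 pan-neuronal markers in the table passed toward sacral, with a median log2 difference (lumbar minus sacral) of -0.53. Their summed RPKM was 1209 to 2060 in lumbar and 1943 to 2495 in sacral libraries. Set beside the glial sums, this shows libraries that held much glial RNA, although sums over different genes do not give shares of cells. These shifts move with the level differences of the members below, and their part in them was looked at only through the scaling and covariates given there.

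Hcn3 was the most abundant of the 3 transcripts, followed by Hcn4 and then Hcn2, and this order held in all 20 libraries. On the RPKM scale, which is per length, the level of Hcn3 averaged 5.22 ± 1.60 (SD, n = 20), that of Hcn4 3.36 ± 1.84 and that of Hcn2 1.01 ± 0.450. Over the 16304 genes tested, the mean log2 level of Hcn3 was above that of 59.8% of genes, that of Hcn4 above 45.5% and that of Hcn2 above 18.7%. The counts behind these levels were 458 to 2375 reads for Hcn3, 192 to 1754 for Hcn4 and 57 to 453 for Hcn2. Counting error alone was therefore 13.2% of the value in the library with fewest Hcn2 reads and at most 4.67% for Hcn3 and 7.22% for Hcn4.

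All 3 members were higher in sacral than in lumbar libraries (adjusted p at most 0.05, limma with donor as a block), in a comparison where 45.6% of genes were called and 30.3% were called higher in sacral. Hcn4 differed most, with 2.39-fold more in sacral libraries, Hcn2 by 1.80-fold and Hcn3 by 1.53-fold. Each member was higher in sacral than in lumbar in 10 of 10 donors, which held for 14.6% of genes with a value in every library. In a bulk sample, fewer cells of a type and less RNA per cell cannot be told apart.

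**Figure D1:**
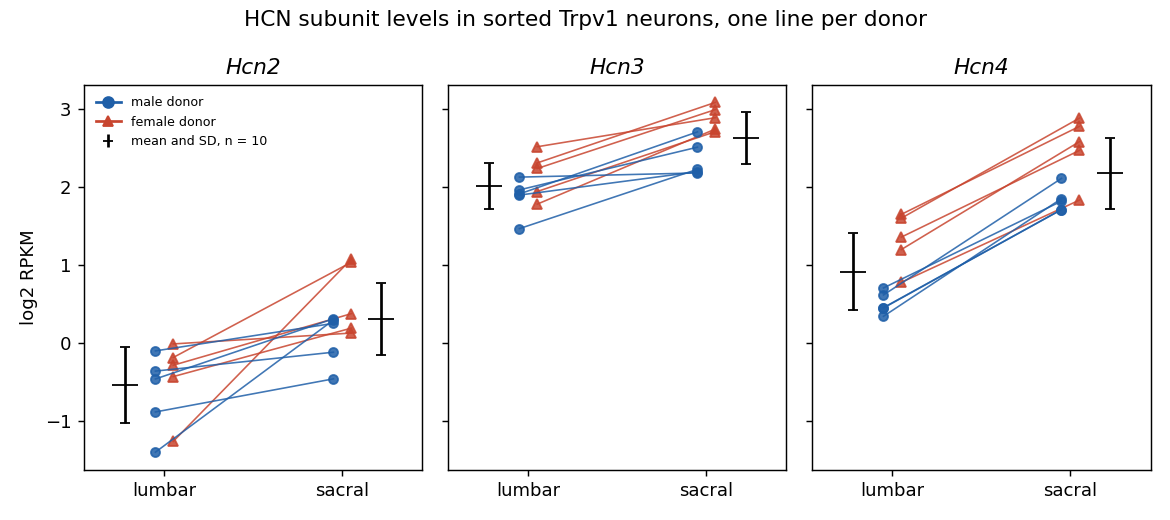
Log2 RPKM of each gene (vertical axis) in lumbar and sacral libraries, with a line for each donor and the mean and SD of the 10 libraries of a level beside them. Every line rises toward sacral; the Hcn4 lines are close to parallel, whereas the Hcn2 lines differ in slope, with M4 and F5 the steepest.

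Hcn4 showed the largest and the most even difference. Its log2 RPKM in male lumbar libraries was 0.45 in M1, 0.34 in M2, 0.62 in M3, 0.45 in M4 and 0.71 in M5, and in male sacral libraries 1.71, 1.85, 2.11, 1.71 and 1.82 in the same order. In female lumbar libraries it was 1.36 in F1, 1.60 in F2, 1.20 in F3, 0.78 in F4 and 1.65 in F5, and in female sacral libraries 2.47, 2.88, 2.58, 1.83 and 2.78. The highest lumbar library (1.65, F5) lay below the lowest sacral library (1.71, M1), so the levels did not overlap, a separation that 1.34% of genes with a value in every library shared. The log2 difference, lumbar minus sacral, was -1.26 (SE 0.116, adjusted p = 2.23e-07, limma), and over donors it ran from -1.51 to -1.05. Its p was the 27th smallest of all genes, and 0.938% of genes had a more negative difference. The difference was -1.33 in males (adjusted p = 4.36e-05, limma) and -1.19 in females (adjusted p = 9.51e-05, limma).

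Hcn3, the subunit that responds least to cyclic AMP, had the smallest difference of the 3. In male lumbar libraries its log2 RPKM was 2.13 in M1, 1.47 in M2, 1.96 in M3, 1.90 in M4 and 1.91 in M5, against 2.18, 2.23, 2.51, 2.20 and 2.71 in the sacral libraries. In female lumbar libraries it was 2.24 in F1, 2.52 in F2, 1.78 in F3, 1.94 in F4 and 2.31 in F5, against 2.99, 2.89, 2.74, 2.71 and 3.09 in the sacral libraries. The levels overlapped: 6 of 10 sacral libraries lay above the highest lumbar one, and M1 was nearly level between its libraries. The log2 difference was -0.61 (SE 0.0992, adjusted p = 6.75e-05, limma), and over donors it ran from -0.96 to -0.053. In males it was -0.49 (adjusted p = 0.0126, limma) and in females -0.73 (adjusted p = 0.00147, limma).

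Hcn2, the subunit tied to nociceptor firing, had the fewest reads and the widest spread between donors. Its log2 RPKM in male lumbar libraries was -0.46 in M1, -0.88 in M2, -0.36 in M3, -1.40 in M4 and -0.10 in M5, against 0.31, -0.46, -0.12, 0.29 and 0.25 in the sacral libraries. In female lumbar libraries it was -0.19 in F1, -0.012 in F2, -0.43 in F3, -0.29 in F4 and -1.26 in F5, against 1.03, 0.13, 0.19, 0.38 and 1.07 in the sacral libraries. The 2 lowest lumbar libraries, M4 and F5 with 57 and 77 reads, belonged to the donors with the widest gaps, and 8 of 10 sacral libraries lay above the highest lumbar one. The log2 difference was -0.85 (SE 0.198, adjusted p = 0.00165, limma), and over donors it ran from -2.34 to -0.14. Without F5 it was -0.68 and the call was kept. In males the difference was -0.70 and did not pass (adjusted p = 0.0641, limma), and in females it was -0.996 (adjusted p = 0.0142, limma). The other 2 members passed in both sexes, in comparisons where 20.2% of genes in males and 16.8% in females were called higher in sacral.

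The level difference was not shown to depend on sex for any member. The interaction, the female minus the male level difference, was -0.30 for Hcn2 (95% interval -1.12 to 0.52), -0.24 for Hcn3 (-0.65 to 0.18) and 0.14 for Hcn4 (-0.35 to 0.62), with an adjusted p of 0.9996 for each (limma). Across all genes 0 were called in the interaction, which is 0% of those tested, and 4.1% had an unadjusted p under 0.05. The interval of Hcn2 includes an interaction as large as its level difference of -0.85.

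The members were also set against the neuronal content of the libraries. The mean log2 RPKM of the 8 pan-neuronal markers was 6.77 ± 0.29 (SD, n = 10) in lumbar and 7.33 ± 0.13 in sacral libraries, and that of the glial markers was 6.27 ± 0.38 and 5.33 ± 0.47. Over the 20 libraries Hcn3 followed the pan-neuronal mean most closely, with a Pearson r of 0.91, against 0.85 for Hcn4 and 0.68 for Hcn2. These correlations are descriptions, since the libraries of a level share their shift. On deviations from the 4 group means r was 0.90 for Hcn3, 0.46 for Hcn4 and 0.23 for Hcn2.

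**Figure D2:**
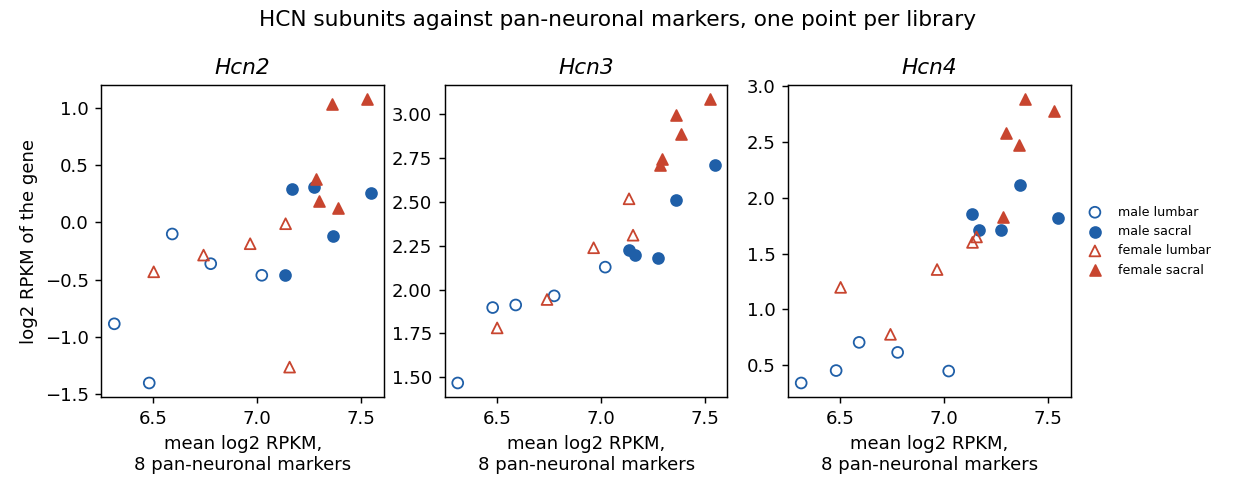
Log2 RPKM of each gene (vertical axis) against the mean log2 RPKM of 8 pan-neuronal markers (horizontal axis), one point per library, with open symbols for lumbar, filled for sacral, circles for males and triangles for females. The Hcn3 points lie near one line, with r = 0.91 over 20 libraries, whereas the Hcn4 points (r = 0.85) spread more widely and its male lumbar libraries lie between 0.34 and 0.71.

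When the values were scaled to the pan-neuronal mean, the log2 difference of Hcn3 was -0.044 (adjusted p = 0.562, limma) and that of Hcn2 was -0.28 (adjusted p = 0.225, limma), so both calls were lost. Hcn4 kept its call at -0.69 (adjusted p = 5.34e-05, limma). Under this scaling 442 of the 16304 genes tested were called higher in sacral and 10397 higher in lumbar. With the glial mean as a covariate Hcn4 was at -1.003 and kept its call (adjusted p = 0.0190, limma), whereas Hcn2 at -0.52 (adjusted p = 0.584) and Hcn3 at -0.15 (adjusted p = 0.703) did not. Most genes lost their call with this covariate: 205 of all genes were called, 172 of them higher in sacral, against 7436 without it. With the pan-neuronal mean as a covariate, an alternative added after seeing the data, none of the 3 was called (limma), at -0.61 for Hcn2, -0.049 for Hcn3 and -0.93 for Hcn4 (adjusted p = 0.0656), while over all genes the calls dropped from 7436 to 55.

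Scaling between libraries also moved the whole comparison. The median log2 difference of all genes was -0.11 as deposited and shifted by 0.13 with TMM factors computed on the recovered reads. Of all calls, 66.5% were higher in sacral as deposited, 52.8% after quantile normalisation, 47.5% with TMM factors and 4.08% when scaled to the pan-neuronal mean. The sign of the 3 differences was negative under each of these, although Hcn2 and Hcn3 were not called when scaled to the pan-neuronal mean. With TMM factors the difference was -0.71 for Hcn2, -0.47 for Hcn3 and -1.13 for Hcn4, all still called (limma).

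**Figure D3:**
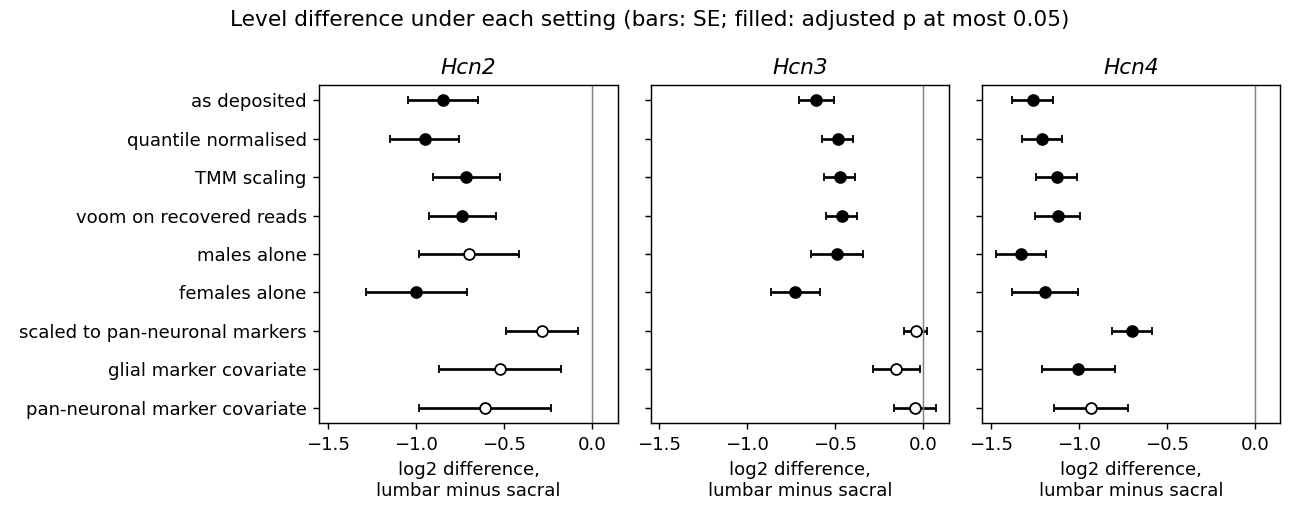
Log2 difference, lumbar minus sacral, of each gene (horizontal axis) under 9 settings (rows), with the SE as bars and filled points where the adjusted p was at most 0.05. The first 4 rows are filled for all 3 genes; Hcn3 lies at -0.044 when scaled to pan-neuronal markers, and Hcn4 stays at or below -0.69 in every row.

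The share of each member in the summed RPKM of these 3 genes does not depend on the scaling between libraries. It is a description with no test. The summed RPKM was 6.83 ± 1.53 (SD, n = 10) in lumbar and 12.3 ± 3.121 in sacral libraries. Hcn3 held 60.7% ± 4.53 of it in lumbar and 51.5% ± 3.69 in sacral libraries, and its share was higher in lumbar in 10 of 10 donors, by 1.43 to 17.6 percentage points. Hcn4 held 28.6% ± 5.001 in lumbar and 37.9% ± 4.83 in sacral libraries, and its share was higher in sacral in 10 of 10 donors, with differences, lumbar minus sacral, of -15.4 to -2.44 points. Hcn2 held 10.7% ± 2.88 and 10.6% ± 2.54, and its share was higher in lumbar in 6 donors and in sacral in 4. Thus Hcn4 made up more, and Hcn3 less, of the 3 in sacral libraries, and the log2 ratio of Hcn4 to Hcn3 was -1.10 in lumbar and -0.45 in sacral libraries.

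**Figure D4:**
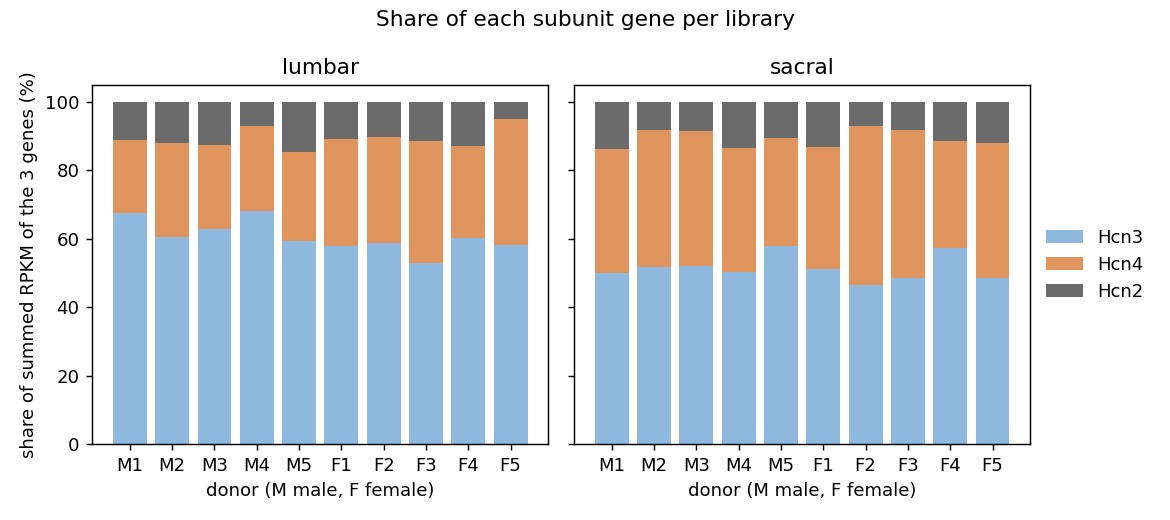
Share of Hcn3, Hcn4 and Hcn2 in the summed RPKM of the 3 genes (vertical axis, %) in each lumbar and sacral library, with donors along the horizontal axis. Hcn3 is the largest part in all 20 libraries, and the Hcn4 part is larger in the sacral than in the lumbar library of every donor.

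The widest gaps in share were in M1 and M4 for Hcn3, at 67.6% in lumbar and 50.1% in sacral and at 68.1% and 50.5%. For Hcn4 the widest was in F2, at 31.1% and 46.5%. The narrowest for Hcn3 was in M5, at 59.5% and 58.1%, and the narrowest for Hcn4 was in F5, at 36.9% and 39.3%.

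Between the sexes, Hcn4 was the member with the widest gap. Every female lumbar library (0.78 to 1.65) lay above every male lumbar library (0.34 to 0.71), as for 0.594% of genes with a value in every library, and 4 of 5 female sacral libraries lay above the highest male one. The female minus male log2 difference was 0.80 (SE 0.180) in lumbar and 0.67 (SE 0.180) in sacral DRG, and neither passed (adjusted p = 0.182 and 0.285, limma). The adjusted test called 0.0427% of genes in lumbar and 0.0368% in sacral DRG. At an unadjusted p under 0.05, which Hcn4 met in both levels, 5.6% of genes were higher in females in lumbar and 3.2% in sacral DRG.

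For Hcn3 the female minus male log2 difference was 0.28 in lumbar (adjusted p = 0.482) and 0.52 in sacral DRG (adjusted p = 0.353, limma). Its 5 female sacral libraries lay above all 5 male ones, which 0.849% of genes shared, though by a margin lost in rounding (2.71 for both F4 and M5). For Hcn2 the difference was 0.21 in lumbar and 0.50 in sacral DRG, with overlapping sexes in both (adjusted p = 0.817 and 0.682, limma).

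Averaged over the levels, a contrast chosen after the values were seen, the female minus male difference of Hcn4 was 0.74 (SE 0.138, adjusted p = 0.0490, limma). Only 0.0368% of genes were called higher in females in this contrast. The call did not hold over donors: leaving out M1, M2, M3, M4, M5, F1, F2 or F5 raised the adjusted p to between 0.0629 and 0.221, and only without F3 or F4 was it kept. The pan-neuronal mean was 0.26 higher and the glial mean 0.37 lower in female than in male lumbar libraries, and in sacral libraries these gaps were 0.073 and -0.42. Their part in the sex difference of Hcn4 was not tested.

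The lists of related genes that follow are to be read beside the shares over all genes tested, of which 30.3% were called higher in sacral and 15.3% higher in lumbar, with a median log2 difference of -0.11. Of 8 listed proteins known to bind or regulate HCN channels 5 were tested, 2 passed toward sacral and 1 toward lumbar, with a median of -0.034, and such small counts are near the shares over all genes. Nedd4l, a ubiquitin ligase (-0.62), and Kctd3 (-0.49) were higher in sacral, and Flna, the actin crosslinker filamin A, was higher in lumbar (1.002). Pex5l encodes TRIP8b, the main auxiliary subunit of HCN channels in the brain, and is named here outside the rule for named genes, after its value was seen. Its log2 RPKM was 3.62 ± 0.11 in lumbar and 3.65 ± 0.15 in sacral libraries (SD, n = 10), a difference of -0.034 that did not pass (adjusted p = 0.695, limma).

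Enzymes that make cyclic nucleotides were called in both directions. Of 13 cyclases tested, of 15 listed, 6 passed toward sacral and 4 toward lumbar (median -0.37), beside 30.3% and 15.3% of all genes. The differences with the largest size were in Adcy4 (1.11), the soluble guanylyl cyclase subunits Gucy1a3 (1.05) and Gucy1b3 (0.94), all higher in lumbar, and Adcy8 (-1.04), a calcium-stimulated adenylyl cyclase, higher in sacral. Gucy1a2, a further soluble guanylyl cyclase subunit and the most abundant of these subunits, was at 0.13 and did not pass (adjusted p = 0.175, limma). Of 17 phosphodiesterases tested, of 18, 6 passed toward sacral and 2 toward lumbar (median -0.24), a total near the 45.6% called over all genes. Pde5a (1.499) and Pde7b (1.29) were higher in lumbar and Pde1c (-0.98) and Pde11a (-0.89) in sacral.

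Among the proteins that carry the cyclic AMP signal onward, the 7 tested, of 8 listed, were all called higher in sacral, with a median of -0.45 beside the -0.53 of the pan-neuronal markers. The eighth, Rapgef3, which encodes the cyclic AMP sensor EPAC1, had too few reads to be tested and averaged -2.02 in lumbar and -3.63 in sacral libraries (log2 RPKM), higher in lumbar in 10 of 10 donors. The 4 largest were regulatory subunits of protein kinase A, Prkar1b (-0.71), Prkar1a (-0.46), Prkar2b (-0.45) and Prkar2a (-0.45). Of 13 Gs proteins and Gs-coupled receptors tested, of 16, 7 passed toward sacral and 2 toward lumbar (median -0.54), beside 30.3% and 15.3% of all genes. The receptor genes Htr7 (-1.52, serotonin), Ptgir (-1.26, prostacyclin) and Adora2a (-1.17, adenosine) were higher in sacral, and Adcyap1r1 (1.16, PACAP) in lumbar.

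Other channels were compared by the same test. Of 14 genes for other channels with a related nucleotide-binding-type domain, 5 had enough reads to be tested, all from the Kcnh potassium channel family, and 4 passed toward sacral, among them Kcnh1 (-0.83), Kcnh6 (-0.53) and Kcnh2 (-0.40), while Kcnh8 (0.75) passed toward lumbar. Of 7 other subthreshold channel genes tested, of 9, 5 passed toward sacral and none toward lumbar (median -0.62), beside 30.3% of all genes called toward sacral and a median of -0.53 for the pan-neuronal markers. Cacna1h (-0.98), a T-type calcium channel, Nalcn (-0.87), the sodium leak channel, and Cacna1i (-0.65), another T-type channel, were among them. Each of these differences was smaller than that of Hcn4 (-1.26), although the gap itself was not tested.

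**Figure D5:**
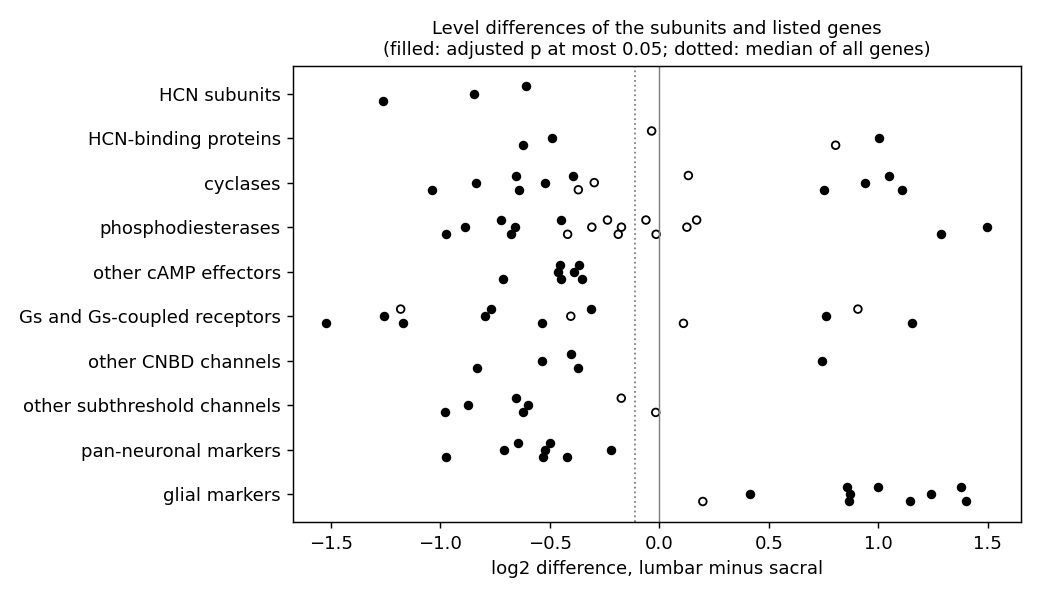
Log2 difference, lumbar minus sacral (horizontal axis), of Hcn2, Hcn3 and Hcn4 and of the tested genes of each list (rows), with filled points where the adjusted p was at most 0.05 and a dotted line at the median of all genes. The effectors and pan-neuronal markers lie on the sacral side and the glial markers on the lumbar side, while cyclases and phosphodiesterases fall on both.

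The genes whose log2 RPKM was most like each member over the 20 libraries were found among 12795 genes with a mean above 0. They are a description, since all points share the level shift. For Hcn3 they were Ywhag, a 14-3-3 protein (r = 0.96), Lrrn1 (0.96) and Kcnab2, a potassium channel beta subunit (0.96), and r on deviations from the group means stayed at 0.91, 0.86 and 0.90. For Hcn4 they were Ncdn (0.93), BC057022 (0.93) and Ccdc92 (0.93), with 0.62, 0.72 and 0.55 on deviations. For Hcn2 they were Snph, syntaphilin (0.90), BC068157 (0.89) and Nos1, neuronal nitric oxide synthase (0.88), with 0.76, 0.75 and 0.68 on deviations.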

How the data were processed

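RNA of DRG cells sorted by the Trpv1 reporter, with glial transcripts also present, was sequenced in 20 libraries. The authors aligned reads to mm9 with Subread, kept uniquely mapping reads, counted them with featureCounts and applied voom and TMM scaling (per the processing notes, Subread 1.20.6, limma 3.26.9, edgeR 3.12.1 and R 3.2.2). The authors deposited log2 RPKM values. TMM factors computed here on recovered reads shifted these, in log2, by -0.17 (M1, sacral) to 0.20 (M5, lumbar). Whether the deposited values already carry the authors' TMM scaling was not tested. The median of a library was summarised as a single value of 0.93, and the medians of separate libraries are not given here. Of 37620 genes listed, 37205 matched GENCODE vM1 on the same build. Whole reads were recovered from the values (98.2% of 314163 values whole within 0.01 of a read). These gave the depth of 43906575 to 66407321 reads per library. Counting errors printed for the members cover counting error only, whereas intervals of the interaction come from the limma fit.

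Genes with a mean log2 RPKM above -1 in at least 1 group, over at least 3 values, were kept (16422, of which 16304 were tested between levels). They were fitted in R 4.3.3 by limma 3.58.1, with statmod 1.5.0 for the block, using a mean per group, donor as a random block (correlation 0.17), a variance trend and Benjamini-Hochberg adjustment at 0.05. The design followed the study's donor block, but log2 RPKM replaced voom as the main values, and voom on recovered reads was an alternative. Lumbar and sacral libraries of a donor share animal numbers in the labels, and their deviations from the group means correlated at 0.18 on average (0.039 to 0.30, above 0.1 in 8 of 10 donors). The study's methods count mice, as many as there are donors, while the labels give pairs of animal numbers, so p-values take donors as labelled. The fit used a single donor correlation shared by all genes. Its p-values therefore rest on the spread of each gene about its group means, weighted by that correlation. They do not rest on the spread of the gene's own paired differences. With donor as a fixed block, only the spread within donors counts. The SE of the level difference was then 0.226 for Hcn2, 0.0975 for Hcn3 and 0.0938 for Hcn4. In the main fit it was 0.198, 0.0992 and 0.116 in the same order. The code of the fit was also run on values simulated from the model itself, with no shift of cell content or scaling between the levels. That run checks the code only and not the calls.

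The members and lists were chosen with earlier results of these data known. Named genes are the members, genes that overlap them, the 3 genes most like each member and, per list, up to 4 called genes with the largest difference. Pex5l, Gucy1a2 and Rapgef3 and the cell type markers Calca, Tac1 and Hand2 were not called and are named outside this rule. Alternatives covered the block, filters, pseudocounts of 1 and 0.1 RPKM, scaling, voom, weights, covariates, donors, sexes and threshold. Python 3.11.15, pandas 2.3.3, numpy 2.4.6, Biopython 1.88 and matplotlib 3.10.9 were used. Promoters are from RefSeq (GRCm38.p6) and matched 2 of the 3 members. Some genes that these rules cover are not reported here.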

Additional observations from a re-analysis of the deposited data

Results flagged for a closer look

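The share of Hcn3 in the summed RPKM of Hcn2, Hcn3 and Hcn4 in the male sacral library of M5 stood apart from its group by Dixon's test, at 58.1% against 50.1% to 52.1% in the other 4 male sacral libraries. The test was run on 30 groups of 5 values (levels, shares and donor differences of the 3 members), and chance alone flags about 1 group in 20. Without M5 the share of Hcn3 was still higher in lumbar than in sacral libraries, by 10.01 percentage points on average.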

How the results depend on the processing

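The level differences of Hcn2, Hcn3 and Hcn4 kept their direction under every alternative run, and their calls under other filters, pseudocounts, quantile and TMM scaling, voom, weights, a fit without the trend, an adjusted p of 0.01 and each of 10 left-out donors (-0.95 to -0.68, -0.66 to -0.57 and -1.29 to -1.24). Pairing changed no call of these 3: 6577 genes were called with no replicate block and 7151 with donor as a fixed replicate block, against 7436. Scaling to pan-neuronal markers left Hcn2 at -0.28 and Hcn3 at -0.044, not called. The glial covariate left 205 genes called, with Hcn2 at -0.52 and Hcn3 at -0.15, not called. The pan-neuronal covariate, added after seeing the data, left 55 genes, with Hcn2 at -0.61, Hcn3 at -0.049 and Hcn4 at -0.93, not called. These covariates differ between the levels, so they also take up part of the level term. Males alone gave 4644 genes and Hcn2 at -0.70, not called, and females alone gave 3671 genes, each with 5 donors in place of 10.

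With a donor left out, the interaction of Hcn2 ran from -0.55 to 0.037, reversed without F5. The female minus male difference of Hcn4 ran from 0.72 to 0.94 in lumbar, called without F4 (0.94, adjusted p = 0.0153, limma), from 0.57 to 0.84 in sacral, called without F4 (0.84, adjusted p = 0.0498, limma), and from 0.65 to 0.89 over both levels, where it was called in 2 of 10 runs. Genes called between the sexes then numbered 3 to 9 in lumbar and 3 to 9 in sacral, and 2 to 61 over both levels (61 without F3), against 76 with no replicate block, 26 after quantile normalisation and 26 with TMM factors. The share of Hcn2 had no stable direction: its mean difference of 0.14 points ran from -0.30 to 0.95 with a donor left out (-0.26 without M2, -0.30 without M3, -0.30 without M5, -0.21 without F2, -0.20 without F3 and -0.0075 without F4) and was -0.32 in females alone. The cause was not tested. Depth limits Hcn2 most, at 57 to 453 reads per library.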

Other observations

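The 3 members did not vary together to the same degree. On deviations from the 4 group means over the 20 libraries, Hcn3 and Hcn4 had a Pearson r of 0.56, Hcn2 and Hcn3 of 0.26 and Hcn2 and Hcn4 of -0.039. These are descriptions over libraries that share donors and scaling, and Hcn2 had the fewest reads. The donors with the widest level gap in Hcn2, F5 (-2.34) and M4 (-1.69), had gaps of -1.13 and -1.26 in Hcn4, near its mean of -1.26.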
